A study of Mus musculus with 6 samples.

Results

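The genes that copy DNA and mark S phase were followed in mouse D2A1 mammary tumor spheroids that received recombinant SLURP1 (rSLURP1) or, as the control protein, recombinant glutathione S-transferase (rGST). The members were 40 genes chosen by name: the origin licensing factors, the activators of the replicative helicase, the replicative polymerases and primase, the sliding clamp with its loader and RPA, the Okazaki fragment enzymes, the enzymes that supply deoxynucleotides, and the G1/S regulators E2f1 and Ccne1. All 40 were found among the 54146 genes of the RNAseq table, and all 40 passed the filter for testing. As deposited, 27 of the 40 were lower and 2 were higher with rSLURP1, but most genes of these cells were also lower, and the members' median log2 fold change of -0.38 was close to the -0.33 of all tested genes. Some members stood away from this shared shift, though not more often than genes in general. With the libraries scaled by the median ratio of their genes, 15% of the members were lower and 17.5% higher. Of all tested genes 25.2% were then lower and 26% higher. Rrm1, Pole, Mcm4 and Lig1 were lower and Cdt1 and Rfc4 were higher under each of the 4 ways of scaling the libraries. Orc1, Cdc45, E2f1 and Ccne1 were not called as deposited and were higher under the other ways of scaling. The share of all tested genes that kept a call under every scaling was not computed.

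DNA replication starts from origins that are licensed in G1, when ORC, Cdc6 and Cdt1 load the Mcm2 to Mcm7 helicase onto DNA. On entry into S phase Cdc45 and GINS join the helicase, primase and polymerase alpha start each strand, and polymerases epsilon and delta extend the leading and the lagging strand with the help of the clamp PCNA. Many of these genes are targets of E2F transcription factors, which RB holds back until cyclin E with Cdk2 releases them, and their mRNA levels are widely used as a readout of proliferation in tumors.

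The series held 6 libraries of D2A1 cells, 3 with rSLURP1 and 3 with rGST, each protein at 50 nM. D2A1 is a mouse mammary carcinoma line that here was grown in 3-dimensional Matrigel culture in DMEM with fetal bovine serum, and the study's methods describe fresh protein each day and harvest on the fifth day. SLURP1 is a secreted protein of the Ly6/uPAR family, and the study added it to spheroids in connection with tumor dormancy. All 6 libraries came from this single line, labelled as control genotype, and the labels do not say whether the 3 libraries of a group were separate cultures, so p-values measure the spread between these libraries only. Of the mammary epithelial markers Krt18 was at 191 to 199 TPM, Krt8 was at 0.51 to 1.66 TPM, Krt5, Krt14 and Epcam were at 0 in each library and Cdh1 did not pass 0.07 TPM. The summed TPM of 6 fibroblast or mesenchymal markers was 2147 to 2372 with rGST and 704 to 759 with rSLURP1, with Col1a1, Dcn, Lum, Pdgfra and Vim called lower. Most of that sum was Vim, with means of 1259 TPM with rGST and 664.5 TPM with rSLURP1. Dcn went from a mean of 581 to 5.46 TPM, Lum from 177 to 0.907 TPM and Col1a1 from 8.78 to 0.327 TPM. Pdgfra went from 197 to 53.9 TPM. The 6 leukocyte markers summed to 3.58 to 4.16 TPM with rGST and 8.12 to 10.6 TPM with rSLURP1, nearly all of it Cd68, with Cd3e and Adgre1 at 0 in each library. The 6 epithelial markers summed to 193 to 201 TPM in both groups, the 3 endothelial markers to at most 0.31 TPM and the 2 adipocyte markers to at most 1.74 TPM. Genes at 1 TPM or more numbered 12390 to 12449 with rGST and 11906 to 11981 with rSLURP1, and the 10 most abundant genes took 11.7 to 12.6% and 13.6 to 15.4% of the TPM. The part of these differences in the results was not tested. Read depth is unknown, since TPM does not keep it.

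The comparison asked whether rSLURP1 changed the replication genes relative to rGST. TPM gives a gene's transcripts as a share of all transcripts of its library after allowing for their length, so levels can be compared between genes, and a gene's TPM also moves when the rest of the library moves. Expression was tested with limma on log2(TPM + 1) over all 12301 genes that reached 1 TPM in 3 or more libraries, p-values were adjusted by the Benjamini-Hochberg method, and a gene was called at an adjusted p of 0.05 or less. Adding 1 makes the fold changes of weakly expressed genes smaller than they are. In bulk RNA, fewer cells in S phase and less RNA of these genes in each cell cannot be told apart.

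Of the 40 members, 27 (67.5%) were lower with rSLURP1, where 58.5% of all tested genes were lower. The 2 higher members, Cdt1 and Rfc4, made up 5% of the members, where 8.66% of all tested genes were higher. The remaining 11 members did not pass, and 31 of the 40 had an unadjusted p under 0.05. No member changed at least 2-fold with an adjusted p of 0.05 or less, against 8.22% of all tested genes. In 28 members every rSLURP1 library was below every rGST library, a separation seen in 61.7% of all tested genes, and in 2 members every rSLURP1 library was above, as in 9.75% of all tested genes. The members' changes ran from -0.96 for Rrm1 to 0.29 for Cdt1, and 22 members lay below and 18 above the median of all tested genes. The share of lower members was thus near that of the whole transcriptome.

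**Figure D1:**
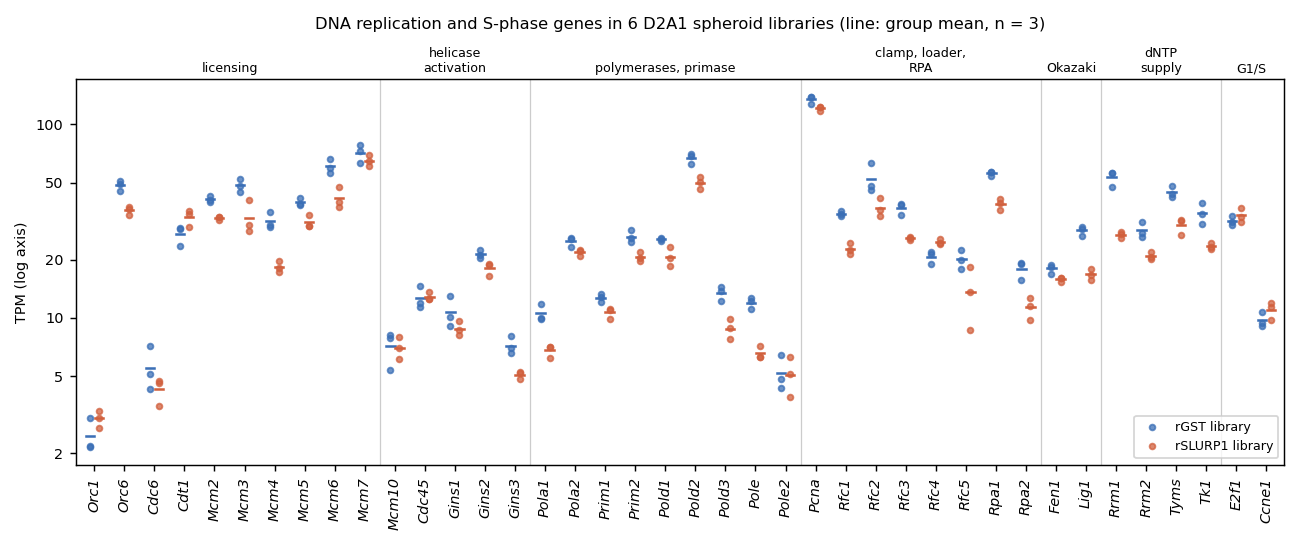
TPM of each of the 40 replication and S-phase genes (log axis, TPM) in the 3 rGST (blue) and 3 rSLURP1 (orange) libraries, grouped by role; points are libraries and short lines are group means. Pcna is the most abundant member, at 118 to 139 TPM, and Orc1 the least abundant, at 2.15 to 3.32 TPM; the orange points of Rrm1, Mcm4, Pole and Lig1 sit well under the blue points, and those of Cdt1 and Rfc4 sit above them.

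Because the median of all tested genes lay at -0.33, the libraries were also scaled by the median ratio of their genes, which moved that median to -0.0012. With median-ratio scaling 6 members (15%) were lower, namely Mcm4, Pole, Rfc1, Rpa1, Lig1 and Rrm1, where 25.2% of all tested genes were lower. The 7 members called higher (17.5%) were Orc1, Cdt1, Cdc45, Pcna, Rfc4, E2f1 and Ccne1, where 26% of all tested genes were higher. The members' median was -0.03, 20 members called lower as deposited no longer passed, and Pcna was called lower as deposited and higher with median-ratio scaling. Quantile normalization called 6 members lower and 8 higher, against 2905 lower and 3111 higher of all 12301 tested genes. A loess correction that removed the trends with GC content and transcript length called 8 members lower and 10 higher. It called 2705 of the 12301 tested genes lower and 3313 higher. TPM carries no measure of total RNA per cell, so which scaling is closer to the content of the cells was not tested. Changes are given below as deposited, with the value after median-ratio scaling where it changes the direction or the call. The counts by role below stand against the shares of all tested genes, 58.5% lower and 8.66% higher as deposited and 25.2% lower and 26% higher after median-ratio scaling.

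**Figure D2:**
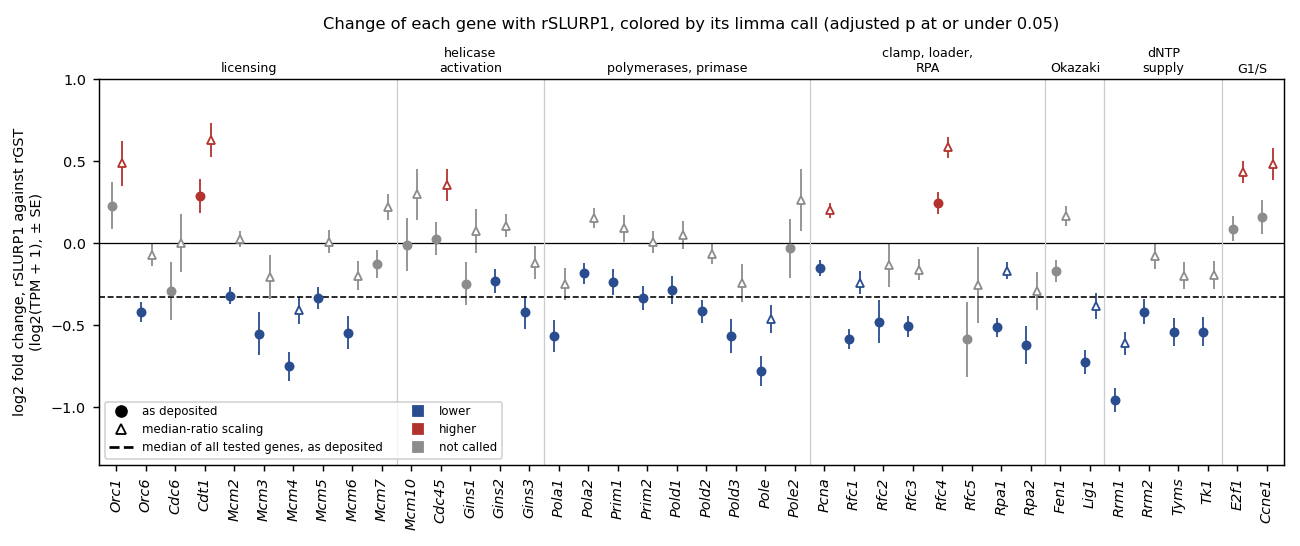
Log2 fold change with rSLURP1 against rGST, on the log2(TPM + 1) scale and with its SE, for each member as deposited (circles) and after median-ratio scaling (triangles), colored by the limma call; n = 3 libraries per group. The dashed line is the median of all tested genes as deposited, -0.33: most circles scatter around it, while Rrm1, Pole, Mcm4 and Lig1 are blue and Cdt1 and Rfc4 are red for both symbols.

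The 6 genes called in the same direction under all 4 scalings were of unlike function. No such share was computed for all tested genes, so their number is a description. Rrm1 (ENSMUSG00000030978.10, chr7:102441695-102469771, plus strand) encodes the large subunit of ribonucleotide reductase, Pole (ENSMUSG00000007080.14, chr5:110286306-110337474, plus strand) the catalytic subunit of polymerase epsilon, Mcm4 (ENSMUSG00000022673.5, chr16:15623897-15637400, minus strand) a subunit of the helicase, and Lig1 (ENSMUSG00000056394.17, chr7:13277283-13311433, plus strand) the ligase that seals Okazaki fragments. Cdt1 (ENSMUSG00000006585.3, chr8:122568015-122573554, plus strand) encodes the factor that brings the helicase to origins, and Rfc4 (ENSMUSG00000022881.15, chr16:23113943-23127737, minus strand) a small subunit of the clamp loader. Gene positions are those of GENCODE M21 on GRCm38 (mm10).

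The promoters of members were searched for letters that E2F, NF-Y and Sp1 are known to bind and for the CHR element of cell cycle genes, since E2F targets make up much of this machinery. RefSeq promoters (GRCm38.p6, 250 bases before to 50 after the start site) were found for 34 of the 40 members. The E2F letters TTTCCCGC, TTTCGCGC, TTTGCCGC or TTTGGCGC, on either strand, were present for 14 of these 34 genes (41.2%), against 5.08% of the 8367 tested genes and 2.61% of all 27025 genes of the table with a promoter. The 14 genes were Orc1, Cdc6, Cdt1, Mcm3, Mcm5, Mcm6, Mcm7, Gins3, Pola1, Pold1, Pold3, Pole2, Rfc3 and Lig1. Their median change was -0.38 with 9 lower and 1 higher, and that of the 20 members without these letters was -0.37 with 13 lower and 1 higher, and these medians differed by little. CCAAT, the NF-Y letters, were present for 20 members (58.8%, against 43.8% of tested genes), of which 16 were lower and 0 higher with a median of -0.42. Of the 14 members without them 6 were lower and 2 higher, with a median of -0.24, where 58.5% and 8.66% of all tested genes were lower and higher. After median-ratio scaling Rfc1, Rpa1 and Rrm1 were the lower and Orc1, Cdc45 and Pcna the higher genes with CCAAT. Of those without it, Lig1 was then lower and Cdt1, Rfc4, E2f1 and Ccne1 were higher. GGGCGG (Sp1) was present for 26 members (76.5%, against 71.8% of tested genes), with a median of -0.37 against -0.42 for the 8 without it. TTTGAA (CHR) was present for 5 members (14.7%, against 13.6%), with a median of -0.32 against -0.42 for the 29 without it. The counts and medians by letters are as deposited. A match is a description of these letters and not a bound site.

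The promoters of 4 of the 6 genes that kept their call are shown, a higher and a lower gene with the E2F letters and a higher and a lower gene without them. Each is written 5′ to 3′ along the gene, with the E2F letters in capitals. In Cdt1 (chr8:122567765-122568064, plus strand) TTTGGCGC starts at base 283 of the window, 32 bases after the start site. In Lig1 (chr7:13278576-13278875, plus strand) TTTCGCGC lies on the opposite strand, so it reads GCGCGAAA, from base 277, and the window is the middle of the 3 that RefSeq gives for this gene. Rfc4 (chr16:23127681-23127980, minus strand) and Rrm1 (chr7:102441445-102441744, plus strand) hold none of the 4 spellings, and the Rrm1 window holds CCAAT at bases 160 and 206.
Cdt1: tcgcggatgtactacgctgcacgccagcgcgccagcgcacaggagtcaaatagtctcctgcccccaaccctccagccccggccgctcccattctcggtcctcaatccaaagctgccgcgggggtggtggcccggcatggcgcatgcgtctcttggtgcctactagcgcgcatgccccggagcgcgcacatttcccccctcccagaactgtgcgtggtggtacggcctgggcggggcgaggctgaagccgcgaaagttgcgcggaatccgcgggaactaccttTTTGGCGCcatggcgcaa
Lig1: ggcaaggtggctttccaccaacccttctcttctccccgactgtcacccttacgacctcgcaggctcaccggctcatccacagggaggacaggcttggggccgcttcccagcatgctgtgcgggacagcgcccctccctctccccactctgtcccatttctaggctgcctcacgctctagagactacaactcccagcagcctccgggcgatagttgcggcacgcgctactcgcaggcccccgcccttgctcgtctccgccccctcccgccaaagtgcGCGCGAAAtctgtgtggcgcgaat
Rfc4: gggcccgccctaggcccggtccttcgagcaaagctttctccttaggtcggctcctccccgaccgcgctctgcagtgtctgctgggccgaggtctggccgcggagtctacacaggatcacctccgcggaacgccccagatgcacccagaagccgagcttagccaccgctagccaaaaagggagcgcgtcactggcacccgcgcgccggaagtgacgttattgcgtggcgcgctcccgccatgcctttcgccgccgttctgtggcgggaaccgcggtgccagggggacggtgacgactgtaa
Rrm1: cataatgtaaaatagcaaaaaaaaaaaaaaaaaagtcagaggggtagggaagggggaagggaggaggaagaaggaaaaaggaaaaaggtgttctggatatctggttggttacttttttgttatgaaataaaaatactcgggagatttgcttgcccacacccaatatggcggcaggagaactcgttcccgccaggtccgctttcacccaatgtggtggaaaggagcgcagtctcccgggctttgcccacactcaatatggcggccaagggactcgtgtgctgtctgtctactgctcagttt

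Among the 10 origin licensing genes 6 were lower and 1 was higher as deposited, with a median of -0.33, and after median-ratio scaling 1 was lower and 2 were higher. Mcm4 was the lowest of them, at 30.1, 35.5 and 29.4 TPM with rGST and 17.4, 19.7 and 18.1 TPM with rSLURP1. Every rSLURP1 library was below every rGST library, and the mean fell from 31.6 ± 3.33 to 18.4 ± 1.19 TPM (SD, n = 3). The log2 fold change was -0.75 (SE 0.09, limma adjusted p = 2.0e-04), and -0.41 (adjusted p = 0.0044) after median-ratio scaling. Cdt1 was the highest, at 23.5, 28.7 and 29.3 TPM with rGST and 35.8, 34.5 and 29.6 TPM with rSLURP1. The groups did not overlap, but the lowest rSLURP1 library exceeded the highest rGST library only narrowly. Its log2 fold change was 0.29 (SE 0.10, limma adjusted p = 0.042), and 0.63 (adjusted p = 0.0019) after median-ratio scaling. As deposited the call of Cdt1 was lost without rGST 1 (0.19, adjusted p = 0.118), rGST 2 (adjusted p = 0.0515), rSLURP1 1 (adjusted p = 0.126) or rSLURP1 2 (adjusted p = 0.112).

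The other subunits of the Mcm2 to Mcm7 helicase spread widely. Mcm3 was lower at -0.55 and Mcm6 at -0.54 as deposited, and after median-ratio scaling they stood at -0.21 and -0.20 with no call. Mcm2 was lower at -0.32 and Mcm5 at -0.34 as deposited, and after median-ratio scaling they stood at 0.03 and 0.01 with no call. Mcm7, the most abundant subunit, did not pass at -0.13 (adjusted p = 0.216), stood at 0.22 after median-ratio scaling (adjusted p = 0.0503), and was called lower as deposited without rGST 3 (-0.21, adjusted p = 0.0348). Orc6, a small subunit of the origin recognition complex, was lower at -0.42 as deposited and stood at -0.07 with no call after scaling. Its partner Orc1, the subunit that binds with Cdc6, stood at 0.23 as deposited (adjusted p = 0.195) and was called higher at 0.49 after median-ratio scaling (adjusted p = 0.022). That call was lost without rGST 1 (adjusted p = 0.0692), rGST 2 (0.0704), rSLURP1 1 (0.0618) or rSLURP1 2 (0.0686). Cdc6, which loads the helicase with Cdt1, did not pass at -0.29 (adjusted p = 0.183), and stood at 0.0013 after median-ratio scaling.

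Of the 5 helicase activation genes 2 were lower and 0 were higher as deposited, with a median of -0.23. Gins3, a subunit of the GINS ring, was the lowest, at 8.03, 6.96 and 6.59 TPM with rGST and 5.26, 4.84 and 5.20 TPM with rSLURP1. The groups did not overlap, and the log2 fold change was -0.42 (SE 0.10, limma adjusted p = 0.0071), which became -0.12 with no call after median-ratio scaling. Cdc45, which joins GINS on the helicase, was at 11.9, 11.4 and 14.6 TPM with rGST and 12.5, 13.6 and 12.5 TPM with rSLURP1. Its libraries were intermixed and its log2 fold change was 0.03 (SE 0.10, limma adjusted p = 0.820), while after median-ratio scaling Cdc45 was called higher at 0.36 (adjusted p = 0.0193). The scaled call of Cdc45 was lost without rGST 1 (adjusted p = 0.0634), rGST 2 (0.0619) or rSLURP1 2 (0.0594). Gins2 was lower at -0.23 as deposited and stood at 0.11 with no call after scaling, and its deposited call was lost without rGST 1 (adjusted p = 0.0631), rGST 3 (0.0826) or rSLURP1 1 (0.0760). Gins1 at -0.25 and Mcm10, a factor that helps to activate the helicase, at -0.01 did not pass, and stood at 0.07 and 0.30 after median-ratio scaling.

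Of the 9 polymerase and primase genes 8 were lower and 0 higher as deposited, with a median of -0.33, the same as that of all tested genes, of which 58.5% were lower, and 1 was lower and 0 higher after median-ratio scaling. Pole had the lowest value, at 11.1, 12.7 and 12.2 TPM with rGST and 6.28, 7.14 and 6.26 TPM with rSLURP1. The mean with rSLURP1 was 54.7% of that with rGST, and no library of the groups overlapped. The log2 fold change was -0.78 (SE 0.09, limma adjusted p = 2.0e-04), and -0.46 (adjusted p = 0.0030) after median-ratio scaling. Pole2, the accessory subunit that binds Pole, was at 4.83, 6.40 and 4.37 TPM with rGST and 5.12, 3.88 and 6.26 TPM with rSLURP1. The groups overlapped fully, and its log2 fold change of -0.03 (SE 0.18, limma adjusted p = 0.885) became 0.26 after median-ratio scaling without a call. As deposited Pola1, the catalytic subunit of polymerase alpha, was lower at -0.57 and its accessory partner Pola2 at -0.18. Of the polymerase delta subunits Pold3 was lower at -0.57, Pold2 at -0.42 and the catalytic Pold1 at -0.29 as deposited. The primase subunits Prim1 and Prim2 were lower at -0.24 and -0.33. After median-ratio scaling none of these 7 genes was called: Pola1 stood at -0.25, Pold3 at -0.24 and Pold2 at -0.07, and Pola2 (0.16), Prim1 (0.09), Prim2 (0.0066) and Pold1 (0.05) changed sign.

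Some of the calls as deposited were lost when a single library was left out. The call of Pola2 was lost without rGST 2 (adjusted p = 0.117), rGST 3 (0.0981), rSLURP1 1 (0.107), rSLURP1 2 (0.0623) or rSLURP1 3 (0.0516). That of Prim1 was lost without rGST 1 (adjusted p = 0.0776), rGST 2 (0.0954) or rSLURP1 2 (0.0838), and that of Pold1 without rGST 2 (0.0521).

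Among the 8 genes of the clamp, the clamp loader and the single-strand binding protein RPA, 6 were lower and 1 was higher as deposited, with a median of -0.51, and after median-ratio scaling 2 were lower and 2 higher. Rpa2 was the lowest, at 18.9, 15.6 and 19.3 TPM with rGST and 9.77, 11.5 and 12.8 TPM with rSLURP1. The groups did not overlap, with a log2 fold change of -0.62 (SE 0.12, limma adjusted p = 0.0023), and after median-ratio scaling it was -0.29 with no call. Rfc4 was the highest, at 19.1, 21.8 and 21.3 TPM with rGST and 24.5, 25.5 and 24.2 TPM with rSLURP1. Every rSLURP1 library was above every rGST library, with a mean of 24.7 ± 0.709 against 20.7 ± 1.47 TPM (SD, n = 3). The log2 fold change was 0.25 (SE 0.07, limma adjusted p = 0.0143), and 0.58 (adjusted p = 2.5e-04) after median-ratio scaling. Rfc4 was called higher in each of the 16 alternatives run for it as well.

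The clamp loader is a ring of Rfc1 with 4 small subunits, and 3 of the genes for the other 4 subunits were lower as deposited. Rfc1, the large subunit, was lower at -0.58 and after median-ratio scaling at -0.24. That scaled call was lost without rGST 1 (adjusted p = 0.0607), rGST 3 (0.0689), rSLURP1 2 (0.0602) or rSLURP1 3 (0.0529). Rfc2 was lower at -0.48 and Rfc3 at -0.51 as deposited, and after scaling they stood at -0.13 and -0.16 with no call. Rfc5 was at 17.9 to 22.3 TPM with rGST and at 8.70, 13.6 and 18.4 TPM with rSLURP1, so its rSLURP1 libraries differed more than 2-fold among themselves. It did not pass at -0.59 (adjusted p = 0.0531), and without rSLURP1 3 it was called lower at -0.82 (adjusted p = 0.0079). Rpa1, which carries most of the DNA contacts of RPA, was lower at -0.51 as deposited and at -0.17 after median-ratio scaling. The scaled call of Rpa1 was lost without rGST 1 (adjusted p = 0.0896), rGST 2 (0.0809) or rSLURP1 1 (0.0776).

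Pcna (ENSMUSG00000027342.14, chr2:132249162-132253314, minus strand), the sliding clamp, was the most abundant member, at 127, 139 and 138 TPM with rGST and 123, 123 and 118 TPM with rSLURP1. Every rSLURP1 library was below every rGST library, although the mean with rSLURP1 was still 90.0% of that with rGST. The log2 fold change was -0.15 (SE 0.05, limma adjusted p = 0.0245), and 0.20 (adjusted p = 0.0080) after median-ratio scaling, a call in the opposite direction. The deposited call was lost without rGST 2 (adjusted p = 0.0848), rGST 3 (0.0751) or rSLURP1 3 (0.0778). The pseudogene Pcna-ps2 was listed at 0.66 to 1.76 TPM, and reads shared between such copies are divided by estimate. Pcna was thus lower as a share of all transcripts and higher relative to the median gene, and with quantile normalization (0.07) or the length and GC correction (0.08) it was not called.

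Lig1 and Fen1 act in turn on Okazaki fragments, Fen1 by cutting the flap and Lig1 by sealing the nick. Lig1 was at 28.9, 29.6 and 26.5 TPM with rGST and 16.7, 15.8 and 17.9 TPM with rSLURP1. The groups were far apart, with a log2 fold change of -0.72 (SE 0.07, limma adjusted p = 9.6e-05), and of -0.38 (adjusted p = 0.0048) after median-ratio scaling. Fen1 was at 16.9, 18.8 and 18.4 TPM with rGST and 16.1, 16.2 and 15.4 TPM with rSLURP1. The Fen1 groups were separate but close, and its log2 fold change of -0.17 (SE 0.07, limma adjusted p = 0.0542) became 0.17 after median-ratio scaling, neither with a call. Without rGST 1 Fen1 was called lower as deposited (-0.21, adjusted p = 0.0414).

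All 4 genes of deoxynucleotide supply were lower as deposited, with a median of -0.54, and each lay under the median of all tested genes. After median-ratio scaling 1 of the 4 was lower. Rrm1 was the lowest of all members, at 47.4, 56.4 and 55.9 TPM with rGST and 26.0, 27.7 and 27.0 TPM with rSLURP1. The lowest rGST library was well above the highest rSLURP1 library, and the mean with rSLURP1 was 50.5% of that with rGST. The log2 fold change was -0.96 (SE 0.08, limma adjusted p = 3.2e-05), and -0.61 (adjusted p = 3.6e-04) after median-ratio scaling. Rrm2, the small subunit whose level follows the cell cycle, was at 26.4, 31.3 and 27.5 TPM with rGST and 21.9, 20.3 and 20.7 TPM with rSLURP1. These groups were also separate, with a log2 fold change of -0.42 (SE 0.08, limma adjusted p = 0.0019), and after median-ratio scaling it was -0.08 with no call. Tyms, which makes thymidylate from deoxyuridylate, was lower at -0.54, as was Tk1, the S-phase thymidine kinase, at -0.54, and both stood at -0.20 after scaling with no call.

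Neither of the 2 G1/S regulators was called as deposited, and both were called higher after median-ratio scaling. E2f1 (ENSMUSG00000027490.17, chr2:154559407-154569892, minus strand), a transcription factor that activates replication genes, was at 30.1, 31.5 and 33.6 TPM with rGST and 33.3, 37.1 and 31.2 TPM with rSLURP1. The groups overlapped as deposited, with a log2 fold change of 0.09 (SE 0.08, limma adjusted p = 0.333), and E2f1 was called higher after median-ratio scaling at 0.43 (SE 0.07, adjusted p = 0.0015). Ccne1 (ENSMUSG00000002068.16, chr7:38097984-38107534, minus strand), which encodes cyclin E1, was at 9.44, 10.8 and 9.10 TPM with rGST and 9.75, 11.97 and 11.4 TPM with rSLURP1. Its groups also overlapped, with a log2 fold change of 0.16 (SE 0.10, limma adjusted p = 0.204) as deposited and 0.48 (SE 0.10, adjusted p = 0.0048) after median-ratio scaling. Orc1, Cdc45, E2f1 and Ccne1 were called higher under each of the 3 other scalings, and were not called as deposited.

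A ratio of members within a library is unchanged by any factor that scales the whole library, so subunits of the same complex and enzymes of the same step were compared as ratios of their TPM in 14 pairs. With 3 libraries against 3 the exact two-sided permutation test cannot give a p under 0.1, so no pair could pass and the values are given with their separation. The groups did not overlap in 6 pairs and overlapped in 8. The exact permutation p was 0.1 in each of the 6, the smallest that the test allows. Single genes often separated as deposited, with 61.7% of all tested genes below and 9.75% above in every rSLURP1 library. How often ratios of other gene pairs separate was not counted, so the number of separate pairs is a description. Corrections that move genes apart within a library can change such ratios, and in 4 of the 6 pairs it was the longer transcript that lost. All 6 pairs stayed separate after quantile normalization and 5 of the 6 after the length and GC correction, where Pole/Pole2 overlapped at -0.51 (from -0.75) and Cdt1/Gmnn stood at 0.43 (from 0.25), all on the log2(TPM + 1) scale. That correction also set Gins1/Gins2 (-0.31) and Pold1/Pold2 (0.31) apart, which overlapped as deposited.

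Rrm2/Rrm1, the ratio of the subunits of ribonucleotide reductase, was 0.556, 0.555 and 0.493 with rGST and 0.841, 0.733 and 0.765 with rSLURP1, a log2 difference of 0.54 (SE 0.08). Fen1/Lig1 was 0.585, 0.634 and 0.694 with rGST and 0.968, 1.03 and 0.860 with rSLURP1, a log2 difference of 0.58 (SE 0.10). Cdt1/Gmnn, the licensing factor over geminin, its inhibitor, was 1.07, 1.11 and 1.02 with rGST and 1.31, 1.26 and 1.24 with rSLURP1, a log2 difference of 0.26 (SE 0.04). In these pairs the first gene gained on the second in every rSLURP1 library. Orc1/Orc6 gained likewise, with a log2 difference of 0.75 (SE 0.19), from 0.0426 to 0.0613 with rGST to 0.0736 to 0.0972 with rSLURP1. Pole/Pole2 went down from 1.98 to 2.79 with rGST to 1 to 1.84 with rSLURP1, a log2 difference of -0.83 (SE 0.30), and Pola1/Pola2 from 0.388 to 0.453 to 0.276 to 0.339, a log2 difference of -0.44 (SE 0.11). In both of these polymerases the catalytic subunit lost against the accessory subunit. The catalytic gene also had the longer transcript, 7163 against 1706 bases for Pole and 5346 against 2878 bases for Pola1. Pold1/Pold2, the pair of polymerase delta, went the other way at 0.12 (SE 0.09), with overlapping groups.

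In the other 8 pairs the groups overlapped, which does not show that the ratio was kept. Mcm2/Mcm5 differed by 0.02 (SE 0.08) and Tyms/Tk1 by -0.0004 (SE 0.10) on the log2 scale. Gins1/Gins2 differed by -0.03 (SE 0.15), Prim1/Prim2 by 0.09 (SE 0.11), Pold1/Pold2 by 0.12 (SE 0.09) and Rpa1/Rpa2 by 0.14 (SE 0.13). Cdc6/Orc1 differed by -0.67 (SE 0.36) with overlapping groups, since its rGST libraries ran from 1.42 to 3.28, and Ccne1/Ccne2 by 0.06 (SE 0.32).

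A further 4 pairs were formed after their values had been seen, and their separation is a description. Mcm7 was the most and Mcm4 the least abundant helicase subunit in all 6 libraries, and Mcm7/Mcm4 was 2.43, 2.20 and 2.15 with rGST and 3.71, 3.54 and 3.39 with rSLURP1. The 6 subunits, which form a ring in equal number, were thus further apart in TPM in each rSLURP1 library. Rfc4/Rfc3 was 0.559, 0.566 and 0.546 with rGST and 0.934, 0.981 and 0.952 with rSLURP1, and Rfc4/Rfc1 was 0.554 to 0.651 with rGST and 1.01 to 1.20 with rSLURP1. Cdt1/Rrm1, the highest member over the lowest, was 0.495 to 0.524 with rGST and 1.10 to 1.38 with rSLURP1, a log2 difference of 1.28 (SE 0.10).

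**Figure D3:**
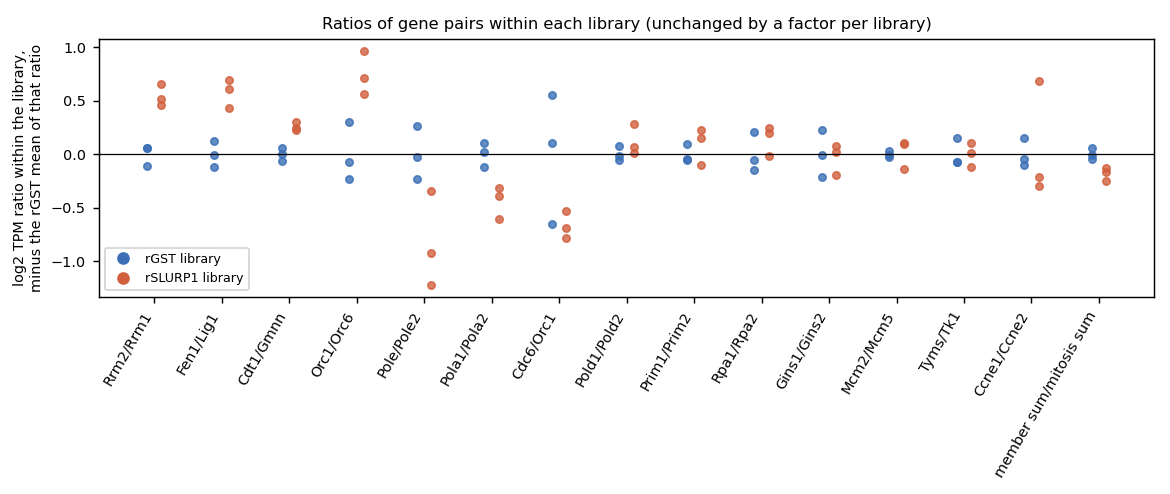
Log2 TPM ratio of each of the 14 gene pairs, and of the summed members over a summed mitosis list, in each of the 3 rGST (blue) and 3 rSLURP1 (orange) libraries, relative to the rGST mean of that ratio. Rrm2/Rrm1, Fen1/Lig1, Cdt1/Gmnn and Orc1/Orc6 lie above their rGST libraries, Pole/Pole2, Pola1/Pola2 and the member over mitosis sum lie below, and the other pairs overlap.

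The summed TPM of the 40 members was 1199, 1315 and 1253 with rGST and 962, 995 and 973 with rSLURP1. A list of 25 mitosis genes, such as Mki67, Plk1 and Ccnb1, served as a second cell cycle readout. Of these, 12 (48%) were lower and 1 (4%) was higher as deposited, with a median of -0.27, against 58.5% and 8.66% of all tested genes. After median-ratio scaling 1 (4%) was lower and 9 (36%) were higher, against 25.2% and 26%. The higher gene was Ube2c, the ubiquitin-conjugating enzyme of the anaphase-promoting complex, at 0.45 (limma adjusted p = 2.3e-04), and the gene lower under both scalings was Mki67, the Ki-67 antigen, at -0.89 (adjusted p = 1.3e-04). The ratio of the summed members to the summed mitosis genes was 1.78, 1.73 and 1.86 with rGST and 1.503, 1.63 and 1.59 with rSLURP1. All 3 rSLURP1 libraries were below the rGST libraries, a log2 difference of -0.18 (SE 0.05, exact two-sided permutation p = 0.1, the smallest possible). The difference was -0.11 when the lists were averaged on the log2(TPM + 1) scale. Sums weigh abundant genes most. The mean of Ube2c rose from 57.2 to 78.6 TPM within a mitosis sum of 675 to 762 TPM with rGST and 609 to 640 TPM with rSLURP1. The ratio without Ube2c was not computed, so how much of the difference rests on this gene is not given.

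Other replication and G1/S genes were read from a list of 55 that holds none of the members. These lay on both sides of the median of all tested genes, 26 below and 29 above. Of the 55, 31 (56.4%) were lower and 0 were higher as deposited, against the 58.5% and 8.66% of all tested genes, and their median was -0.27, against -0.38 for the members and -0.33 for all tested genes. After median-ratio scaling 10 (18.2%) were lower and 11 (20%) higher, against 25.2% and 26%. At least 2-fold lower were 2 of them, Dna2 and Rb1. Dna2, a nuclease that trims long flaps on Okazaki fragments, was at 2.64, 3.03 and 3.27 TPM with rGST and 0.92, 0.97 and 0.69 TPM with rSLURP1, and its log2 fold change was -1.10 (SE 0.14, limma adjusted p = 3.3e-04). Rb1, which encodes the repressor of E2F, was at 16.1, 14.3 and 12.9 TPM with rGST and 5.66, 6.83 and 6.56 TPM with rSLURP1, and its log2 fold change was -1.07 (SE 0.11, limma adjusted p = 9.8e-05). Both groups of libraries were far apart for either gene, and both calls held after median-ratio scaling, at -0.88 and -0.75. Orc3, another subunit of the origin recognition complex, was the next lowest at -0.75 (adjusted p = 2.8e-04), and -0.41 after scaling (adjusted p = 0.0109).

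The highest values of that list were those of E2f2 at 0.29, Mtbp at 0.15 and Ccne2 at 0.10, none of which passed as deposited. After median-ratio scaling E2f2, a second activating E2F, stood at 0.51 (adjusted p = 0.0474) and Mtbp, a factor of origin firing, at 0.49 (adjusted p = 0.0267), and Ccne2, cyclin E2, stood at 0.38 (adjusted p = 0.141). By role, 8 of 10 other replisome subunits and 4 of 13 other licensing and firing factors were lower as deposited. So were 4 of 7 fork protection and clamp partners and 4 of 7 genes of chromatin copying. Lower too were 3 of 5 other deoxynucleotide enzymes and 8 of 13 other G1/S regulators. After median-ratio scaling 2 replisome subunits were lower and 3 higher, and 2 licensing and firing factors were lower and 4 higher. Of the fork protection and clamp partners 0 were lower and 0 higher, and of chromatin copying 1 and 0. Of the deoxynucleotide enzymes 1 was lower and 1 higher, and of the G1/S regulators 4 and 3.

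Transcript length moved with the changes. Across the 40 members the Spearman correlation of the log2 fold change with the length of the longest annotated transcript was -0.48, and it was -0.25 across 12293 tested genes with a length, in each case from the same 6 libraries and with values that had been divided by length. Pole (7163 bases) and Rrm1 (5475 bases) were the longest transcripts among the members, and Rfc4 (1279 bases) was among the shortest. In the length bin nearest to Rfc4 the median of all tested genes was -0.19, with quartiles at -0.44 and 0.08, so its 0.25 lay above the upper quartile. In the bins nearest to Rrm1 and Pole the medians were -0.43 and -0.42 and the lower quartiles -0.68 and -0.64, and the -0.96 and -0.78 of these genes lay under them. With the length and GC correction Rrm1 remained lower at -0.56, Mcm4 at -0.37, Lig1 at -0.32 and Pole at -0.29, while Cdt1 remained higher at 0.65 and Rfc4 at 0.44. With that correction Rfc1 (-0.16) and Rpa1 (-0.05) were no longer called, and Mcm7 (0.26), Gins2 (0.22), Pola2 (0.18) and Fen1 (0.18) were called higher. Called lower with it, but not called after median-ratio scaling, were Orc6 (-0.19), Pold2 (-0.17), Rfc3 (-0.17) and Rpa2 (-0.33).

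**Figure D4:**
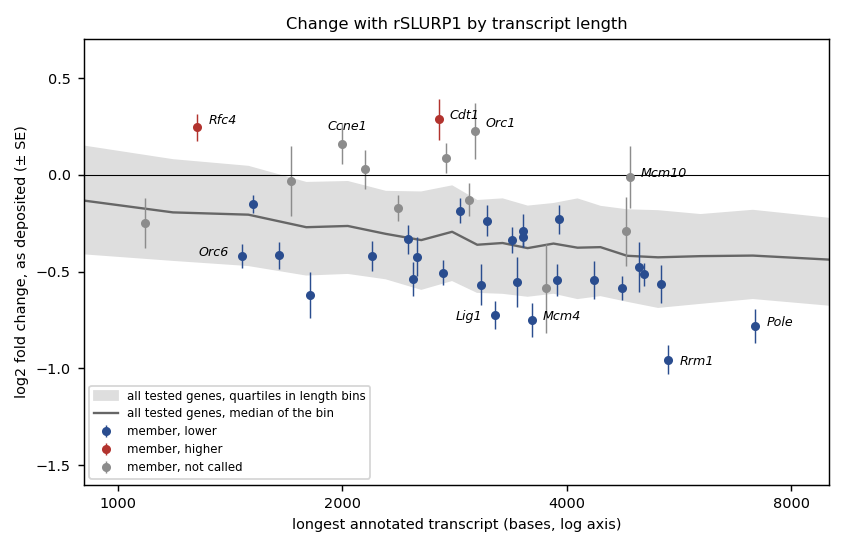
Log2 fold change with rSLURP1 as deposited (log2(TPM + 1) scale, with SE) against the length of the longest annotated transcript (bases, log axis) for the 40 members, colored by call, over the median (line) and quartiles (grey band) of all tested genes in bins of length. Rfc4, Cdt1, Orc1, Ccne1, E2f1, Cdc45 and Mcm10 sit above the band at their length, and Rpa2, Lig1, Mcm4, Rrm1 and Pole sit below it.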

How the data were processed

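RNAseq of D2A1 spheroids was analysed in 6 libraries, grouped by the sample labels into 3 with rSLURP1 and 3 with rGST. Per the labels, the authors used Cutadapt 1.18 for trimming, STAR 2.5.2b for alignment to mm10 and RSEM 1.3.3 for quantification, and they deposited TPM, which divides by transcript length and sets each library to a common total. The library kit is TruSeq mRNA in the labels and Smart-seq2 in the study's methods, and whether strand was used is not given in the sources used here. From the deposited TPM, log2(TPM + 1) was tested with limma 3.58.1 (lmFit and trended eBayes in R 4.3.3) without a block, as described in the text. The method was tested on simulated data. Depth is unknown, so counting error could not be given, and the 3 libraries per group set the precision.

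The members, the other gene lists and the pairs were chosen with earlier results of these data known, so no set test was run. Values in every library are given for the lowest and highest member of each role and for Pcna, E2f1 and Ccne1, the other members get a fold change, and the 3 lowest and 3 highest of the 55 other genes are named; Rfc5, Gmnn, Ube2c and Mki67, and values of pairs, go beyond this rule and were picked after their values were seen. Positions and lengths come from GENCODE M21 (54079 of 54146 identifiers matched without version) and promoters from RefSeq. Alternatives were a pseudocount of 0.1, quantile normalization and median-ratio scaling, no filter or a stricter one in all 6 libraries, TPM without mitochondrial genes, eBayes without trend, a loess correction (span 0.3) for length and GC content, the replicate number as a block, and each library left out; median-ratio scaling combined with the block or with a library left out, and ratios after quantile normalization or the loess correction, were added after seeing the data. Python packages were pandas 2.3.3, scipy 1.17.1 and matplotlib 3.10.9.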

Additional observations from a re-analysis of the deposited data

How the results depend on the processing

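The call of most members, and the direction of some, depended on how the libraries were scaled, since scaling moved the median of all tested genes from -0.33 to near 0 by construction. For changes in single values under the other alternatives the cause was not tested. Depth is unknown, and 3 libraries per group limit the precision.

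The count of lower members, 27 as deposited, was 6 after median-ratio scaling and 6 after quantile normalization, 8 with the loess correction for length and GC content and 5 when the replicate block was added to it, and 23 to 28 under the other alternatives. The count of higher members, 2 as deposited, was 7 after median-ratio scaling and 8 after quantile normalization, 10 with the loess correction and 9 when the block was added, and it was 1 without a filter, 1 with eBayes without trend, 1 with the replicate block, and 1 to 2 with each library left out, where Cdt1 lost its call. After median-ratio scaling, 5 to 7 members were lower and 5 to 7 higher with each library left out. The median log2 fold change of the members, -0.38 as deposited, was -0.033 after median-ratio scaling and -0.0076 after quantile normalization, -0.041 with the loess correction, the block added or not, and -0.40 to -0.32 with each library left out. Its distance from the median of all tested genes, -0.05 as deposited, was -0.28 without a filter, which brings in low genes with changes near 0, and -0.083 to 0.0020 with each library left out, changing sign without rGST 2. Of the ratios of pairs, added under the loess correction, Pold1/Pold2 (0.31), Rpa1/Rpa2 (0.27), Gins1/Gins2 (-0.31) and Cdt1/Gmnn (0.43) moved by more than the spread of the libraries. The log2 difference in the ratio of members to mitosis genes was -0.11 on the mean log2 scale and -0.21 to -0.15 with each library left out.

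With median-ratio scaling, 14 members below 0 as deposited changed sign: Cdc6 (0.0013), Mcm2 (0.026), Mcm5 (0.0092), Mcm7 (0.22), Mcm10 (0.30), Gins1 (0.073), Gins2 (0.11), Pola2 (0.16), Prim1 (0.091), Prim2 (0.0066), Pold1 (0.052), Pole2 (0.26), Pcna (0.20) and Fen1 (0.17). With quantile normalization they stood at 0.10 for Cdc6, 0.033 for Mcm2, 0.016 for Mcm5, 0.16 for Mcm7, 0.39 for Mcm10, 0.16 for Gins1, 0.16 for Gins2, 0.21 for Pola2, 0.16 for Prim1, 0.056 for Prim2, 0.10 for Pold1, 0.37 for Pole2, 0.072 for Pcna and 0.23 for Fen1. With the loess correction, the block added or not, all of these but Gins1 and Prim2 were above 0, at 0.16 for Cdc6, 0.092 for Mcm2, 0.071 for Mcm5, 0.26 for Mcm7, 0.44 for Mcm10, 0.22 for Gins2, 0.18 for Pola2, 0.13 for Prim1, 0.13 for Pold1, 0.22 for Pole2, 0.083 for Pcna and 0.18 for Fen1. Mcm10 was at 0.014 without mitochondrial genes. With each library left out, values that crossed 0 ran from -0.18 to 0.087 for Mcm10, -0.039 to 0.13 for Cdc45, -0.17 to 0.12 for Pole2, -0.051 to 0.32 for Ccne2 and -0.032 to 0.25 for Mtbp.

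After median-ratio scaling, 7 members without a call gained one when a single library was left out. These were Mcm3 without rSLURP1 3 (-0.37, limma adjusted p = 0.0073), Mcm6 without rSLURP1 2 (-0.27, adjusted p = 0.0338), Mcm7 without rGST 2 (0.29, adjusted p = 0.0249), Rfc3 without rGST 1 (-0.22, adjusted p = 0.0202), Rpa2 without rGST 2 (-0.38, adjusted p = 0.0374) or rSLURP1 3 (-0.38, adjusted p = 0.0353), Tyms without rSLURP1 1 (-0.25, adjusted p = 0.0454) and Tk1 without rGST 1 (-0.28, adjusted p = 0.0207).

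The replicate number as a block left 26 members lower and 1 higher. Deviations from the group means correlated at -0.06, -0.03 and -0.06 between libraries of the same number, with a mean of -0.05 against 0.03 for other numbers. The values thus showed no pairing by number. The labels do not say whether libraries of the same number shared a preparation, and these few correlations cannot tell.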
